A study of Mus musculus with 8 samples.

Results

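Pde1c encodes a calcium/calmodulin-dependent phosphodiesterase, and the sites described here are the cytosine positions that the deposited table lists inside its gene span. They were found by position alone, on chromosome 6 between 56069798 and 56652510 of mouse build GRCm38 (gene identifier 18575), and number 507 of the 8492 positions in the table. The table holds levels from RNA bisulfite sequencing of poly(A) RNA, in which bisulfite converts unmodified cytosine, and a site's level is the percentage of its reads still showing cytosine. The cells were mast cells grown from C57BL/6 bone marrow with IL-3 at 10 ng/ml and SCF at 5 ng/ml for 4 to 6 weeks, positive for FcεRI and c-Kit at a purity above 97.5%. The labels describe 4 wild-type and 4 Tet2-/- libraries. The levels analysed are those of the 4 Tet2-/- libraries, and nothing below compares the genotypes.

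Within the Tet2-/- group, libraries 1A and 1B are technical replicates 1 and 2 of biological replicate 1, and libraries 2A and 2B those of biological replicate 2. Errors are the SD over the 2 biological replicates, each the mean of its technical replicates. The labels do not state whether a biological replicate is 1 animal, and the sources used here do not give how Tet2 was deleted. By the table's title the listed sites are specific to Tet2-deficient cells, so they were selected on their levels in these same libraries. Pde1c was then chosen by its number of listed sites and their level, so both are descriptions with no test. Read numbers behind the levels were not analysed, so the depth is unknown. No level under 10% is listed in any library. Expression is not in the table, so the cell type could not be checked by marker levels. Of 13 mast cell markers, Cpa3 and Il1rl1 had listed sites, where 0.438% of all protein-coding genes had one, and this says nothing of how strongly any of the 13 was expressed.

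Phosphodiesterases of this family end cyclic nucleotide signals. When calcium rises, calmodulin binds the enzyme and it breaks down cAMP and cGMP, so it links the calcium signal to the cyclic nucleotide signal. PDE1C is best known from olfactory neurons and from proliferating smooth muscle. In mast cells, calcium entry after FcεRI crosslinking drives degranulation, while a rise in cAMP restrains the release of mediators. Tet2 oxidises 5-methylcytosine and is known mainly as an enzyme of DNA that can also act on RNA.

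The 507 sites occupied little of the long gene. Pde1c lies on the minus strand and spans 582713 bases, while the sites ran from 56254918 to 56429223 and formed 6 stretches when sites up to 500 bases apart were joined. Together the stretches covered 4050 bases, or 0.695% of the span. No further site was listed for a long way on either side: the nearest on chromosome 6 were at 36941103, with a mean level of 24.4%, and at 65122338, with 18.8%. The outermost Pde1c sites themselves stood at 27.2% and 35.0%. Pde1c held 28.0% of the 1810 listed sites of chromosome 6. Exon, intron and UTR coordinates were not used here, so whether a stretch lies in the mature mRNA is not analysed.

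RefSeq's GRCm38.p6 promoter table gives 3 start regions for Pde1c, each running from 250 bases before to 50 bases after a transcription start. None of them held a listed site. The starts lie at 56362392, 56362810 and 56369634, between the stretches: 86 sites lie downstream of all 3 in the direction of transcription and 421 lie upstream of all 3. The upstream sites are still inside the gene span, which reaches 283 kb beyond the outermost of these starts. The 3 regions therefore need not hold every start of the gene, and upstream of them does not mean outside the transcribed part. The window nearest to any stretch, chr6:56369585-56369884 on the minus strand, is shown as the start region closest to the listed sites, with its cytosines in capitals. All but the last 50 of its bases lie before the start, so RNA begun at that start would not hold them.

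Pde1c start region: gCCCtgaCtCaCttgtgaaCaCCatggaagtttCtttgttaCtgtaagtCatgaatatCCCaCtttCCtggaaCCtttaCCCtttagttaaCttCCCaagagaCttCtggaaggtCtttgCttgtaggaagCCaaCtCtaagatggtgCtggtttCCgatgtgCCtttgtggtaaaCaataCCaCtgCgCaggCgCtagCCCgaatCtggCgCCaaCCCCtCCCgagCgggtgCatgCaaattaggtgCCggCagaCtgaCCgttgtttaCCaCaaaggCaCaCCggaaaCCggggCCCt

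It has 83 cytosines on the strand shown, 27.7 per 100 bases, and the nearest listed site is 22515 bases upstream of its start. The other Pde1c windows have 81 and 69 cytosines. Across 32851 such windows of the mouse genome the median was 25.7 cytosines per 100 bases. The Pde1c stretches, whose sequence was not used here, held 10.3 to 19.4 listed sites per 100 bases. The table gives no strand, so these counts of cytosines are not counts of positions that could have been listed. A window without listed sites may have had no reads, levels under 10% or sites that the authors did not choose.

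Levels were high in Pde1c as a whole and nearly equal in the biological replicates. The mean over the 507 sites was 70.3% in library 1A, 67.4% in 1B, 66.2% in 2A and 71.1% in 2B. The libraries of replicate 1 lie between those of replicate 2, so the groups overlap. The gene mean was 68.7% ± 0.187 (SD, n = 2). The median site stood at 73.5%, and the middle of the distribution ran from a lower quartile of 54.2% to an upper quartile of 84.6%. Over all listed sites the median was 49.2%, with quartiles of 30.5% and 72.1%.

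**Figure D1:**
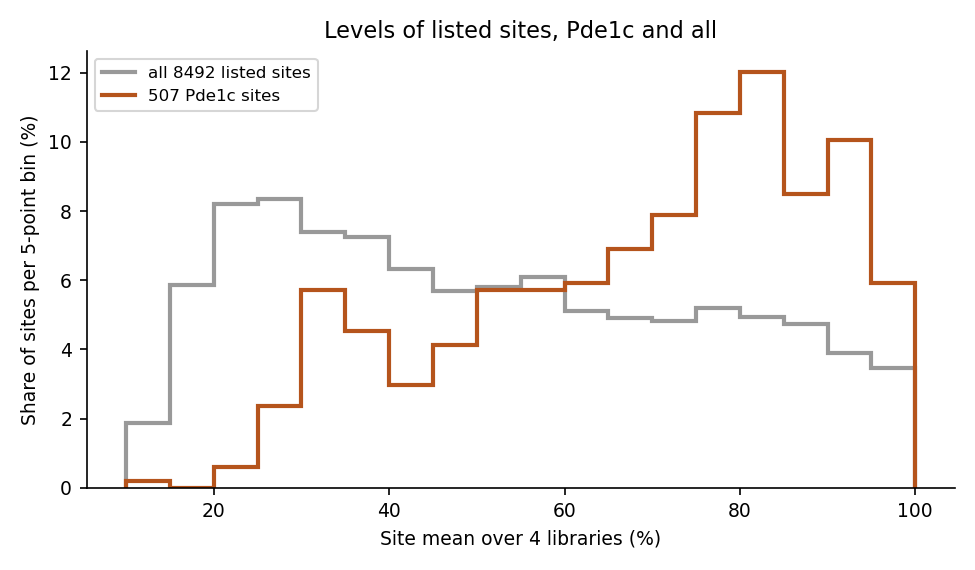
Share of sites in percent per 5-point bin (vertical axis) against the site mean over the 4 Tet2-/- libraries in percent (horizontal axis), for Pde1c (orange) and all listed sites (grey). The median is 73.5% for the 507 Pde1c sites and 49.2% for the 8492 sites.

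At 328 of the 507 sites (64.7%) all 4 libraries read 50% or more, against 33.6% of all listed sites. The Pde1c share was 42.4% with each stretch counted once, so it rests on the long stretches. Among the 19 sites with no other within 10 bases it was 42.1%. Those 19 sites were spread unevenly, with 3, 0, 5, 5, 4 and 2 in stretches 1 to 6. Their lower share mixes the lack of neighbours with the stretch they lie in, and which of these it follows was not tested. These shares are side by side with no test, because neighbouring sites are not independent and the gene was chosen for its listing. All 4 libraries read 100% at 8 sites (1.58%, against 0.836% of all listed sites). Of these, 7 lie in stretch 5, at 56405930, 56405996, 56406093, 56406094, 56406099, 56406100 and 56406122, and the other is at 56393873 in stretch 4. No Pde1c site was under 20% in every library, against 2.45% of all listed sites.

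The 6 stretches, numbered along the chromosome, fell into different levels. Stretch 4, from 56393344 to 56394564, held 126 sites and had the highest mean. Its mean was 86.2% in library 1A, 70.7% in 1B, 76.8% in 2A and 79.2% in 2B, which gives 78.2% ± 0.344 (SD, n = 2). Library 1A stood highest and 1B lowest, so the technical replicates of replicate 1 enclosed both libraries of replicate 2. Stretch 5, from 56404692 to 56406344, was the longest with 224 sites, 44.2% of the Pde1c sites. It read 76.4%, 75.3%, 74.7% and 78.8% in libraries 1A, 1B, 2A and 2B, or 76.3% ± 0.636 (SD, n = 2). Its 4 libraries lay within 4.13 points of each other, the narrowest range of the 6 stretches.

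The 2 stretches downstream of the starts had middle levels. Stretch 1, from 56254918 to 56255309 with 58 sites, read 59.7% and 64.2% in libraries 1A and 1B and 54.7% and 55.3% in 2A and 2B. Replicate 1 lay above replicate 2 without overlap, and the mean was 58.5% ± 4.93 (SD, n = 2). Stretch 2, from 56257045 to 56257188 with 28 sites, was the most crowded, at 19.4 sites per 100 bases. It read 58.0%, 74.3%, 47.4% and 59.4% in libraries 1A, 1B, 2A and 2B, a mean of 59.8% ± 9.01 (SD, n = 2). Library 1B was high and 2A low, and the replicates overlapped.

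The lowest levels were in stretches 3 and 6. Stretch 3, from 56392149 to 56392699 with 59 sites, read 35.6%, 39.1%, 38.2% and 53.5% in libraries 1A, 1B, 2A and 2B, or 41.6% ± 6.00 (SD, n = 2). Library 2B alone stood high. Stretch 6, from 56429135 to 56429223 with 12 sites, read 39.8%, 25.7%, 31.5% and 31.7%, or 32.2% ± 0.790 (SD, n = 2). Here 1A was highest and 1B lowest, with both libraries of replicate 2 between them. In stretches 3 and 6 no site reached 50% in every library, while 109 of 126 sites did in stretch 4 and 183 of 224 in stretch 5. Stretches 3 and 4 are 645 bases apart, and every library was higher in stretch 4, by at least 25.7 points.

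**Figure D2:**
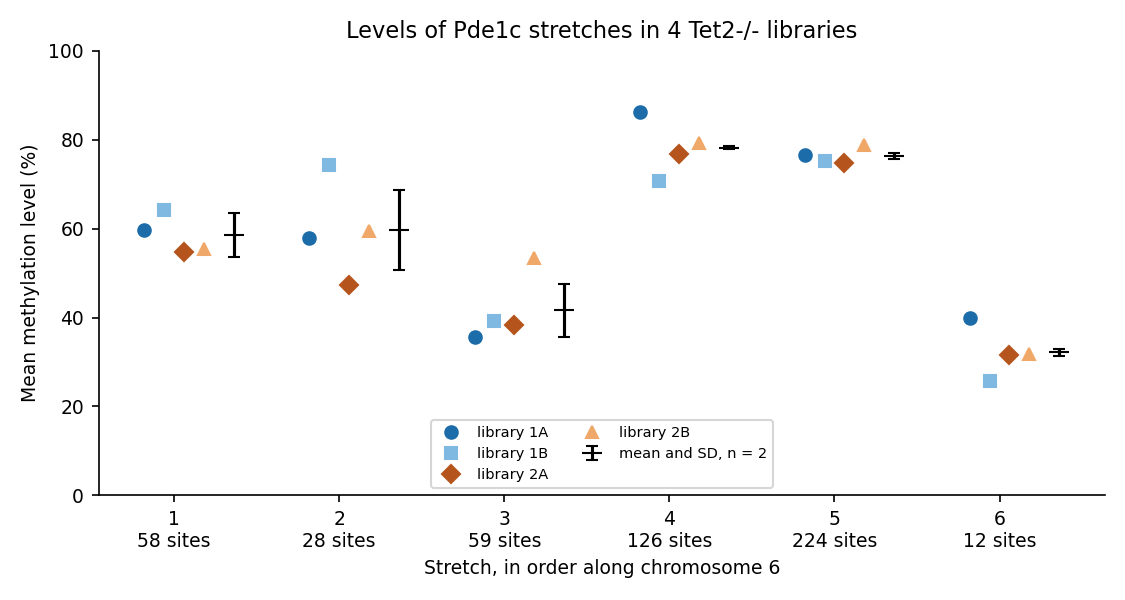
Mean methylation level in percent (vertical axis) of each Pde1c stretch (horizontal axis, with its number of sites) in Tet2-/- libraries 1A, 1B, 2A and 2B; the black tick and bar are the mean and SD of 2 biological replicates. Stretches 4 and 5 lie near 78.2% and 76.3%, stretches 3 and 6 at 41.6% and 32.2%.

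Among the 146 stretches of 10 or more sites in the table, whose median level was 46.3%, stretches 4 and 5 ranked 18 and 22 by level. Stretches 2 and 1 ranked 46 and 50, stretch 3 ranked 86 and stretch 6 ranked 112. By number of sites, stretch 5 ranked 5 and stretch 4 ranked 13. The Pde1c stretches thus spread from the upper to the lower part of the list, and the high gene mean rests on stretches 4 and 5, which hold 350 of the 507 sites. With each stretch counted once, the gene mean was 57.8% ± 1.41 (SD, n = 2).

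Along the gene the replicate means differed in either direction, mostly within the spread of technical replicates. Replicate 1 was higher in stretches 1, 2, 4 and 6 and replicate 2 in stretches 3 and 5. Only in stretch 1 did the libraries of the replicates not overlap. The replicate means were 78.5% and 78.0% in stretch 4, 75.9% and 76.8% in stretch 5, and 32.7% and 31.6% in stretch 6. Differences of either sign were also found inside stretch 4. Joining sites only up to 100 bases apart separates there a piece of 61 sites from one of 64. In the first piece, from 56393344 to 56393665, library 1A stood at 89.6% and the others at 67.3% (1B), 66.9% (2A) and 73.2% (2B). In the second, from 56393806 to 56394314, library 1B stood lowest at 73.9%, with 82.7% in 1A, 85.9% in 2A and 84.8% in 2B. The replicate means were 78.5% and 70.0% in the first piece and 78.3% and 85.3% in the second. In the first piece the replicates overlapped, with library 1B among those of replicate 2, and in the second they did not.

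Stretch 3 had a similar break. In its first piece, 25 sites from 56392149 to 56392278, the libraries read 29.4% (1A), 31.2% (1B), 36.5% (2A) and 31.4% (2B). In its second, 34 sites from 56392537 to 56392699, library 2B rose away from the rest, at 69.7% against 40.1%, 45.0% and 39.5%. Library 2B was also highest in the first piece of stretch 5, 25 sites from 56404692 to 56404857, at 68.1% against 48.1%, 49.7% and 52.9%. In the 199 sites that follow it, from 56405133 to 56406344, the libraries were within 2.75 points, at 80% (1A), 78.5% (1B), 77.4% (2A) and 80.2% (2B).

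No library was high throughout. In the 34 windows of 100 bases that held 5 or more sites, library 1A was highest in 10, 1B in 11, 2A in 6 and 2B in 7. Library 1A was lowest in 8 of these windows, 1B in 10, 2A in 11 and 2B in 5. The range between the libraries of a window ran from 3.10 to 44.7 points, with a median of 18.0. The widest was in stretch 1, where 16 sites from 56255059 to 56255104 averaged 55.9% in 1A, 82.4% in 1B, 37.8% in 2A and 61.0% in 2B.

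Technical replicates were as far apart as biological ones. At single Pde1c sites the mean difference was 13.3 points within technical pairs and 13.4 points within biological pairs. The libraries of replicate 1 lay wholly above or below those of replicate 2 at 148 sites (29.2%, against 30.4% of all listed sites). Among stretches this held for 1 of 6, stretch 1, against 29.5% of the 146 stretches of 10 or more sites. Both member counts are no higher than the background. The column names can also be read with the number after "rep" as the biological replicate. Read that way, 140 sites (27.6%, against 26.3%) and 2 stretches (against 34.2%) did not overlap, and the SD of the gene mean was 0.725 points. For the remaining way to pair the libraries, 1A with 2B, 155 sites (30.6%, against 33.7%) and 3 stretches (against 36.3%) did not overlap.

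The lowest Pde1c site, at 56405423 in stretch 5, read 14.3% in library 1A, 21.4% in 1B, 10.7% in 2A and 12.5% in 2B. All 4 libraries were low there, and levels fell toward it from one side in steps. At 56405387 the mean over libraries was 94.8%, at 56405397 it was 89.6%, at 56405404 it was 67.4%, and at 56405412 and 56405413 it was 33.5% and 31.4%. The next listed sites on the far side, 56405457 and 56405465, were back at 85.1% and 88.6%.

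**Figure D3:**
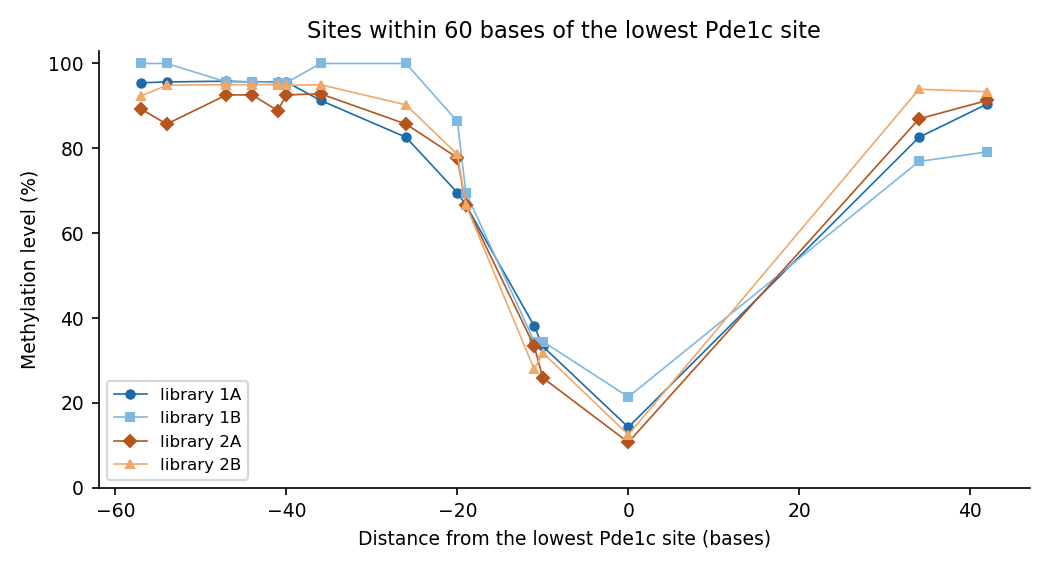
Methylation level in percent (vertical axis) of the listed sites within 60 bases of the lowest Pde1c site, against the distance from it in bases (horizontal axis); each line is a Tet2-/- library. All 4 libraries fall from over 85% to between 10.7% and 21.4% and return to over 75%.

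Other dips were looked for by a rule set after the levels had been seen: a site whose mean lay 25 points or more under the means of the listed sites 15 to 60 bases away on each side, with at least 3 sites on each side. Of 372 Pde1c sites with such flanks, 12 (3.23%) were in dips, against 1.42% of all listed sites with flanks; a site among high neighbours has more room to fall, and that was not adjusted for. The 12 sites formed 7 dips, and 5 of the 12 were 25 points or more under both flanks in each of the 4 libraries. This was not counted over all listed sites, so whether 5 of 12 is many or few cannot be said. The sites were picked by the mean of these libraries, which by itself makes most libraries read low there. The deepest was at 56394044 in stretch 4, where libraries 1A, 1B, 2A and 2B read 35.3%, 40%, 35% and 41.2% between flanks of 90.6% and 91.5%. At 56255202 in stretch 1 they read 30%, 21.4%, 22.2% and 27.3% between flanks of 79.5% and 67.7%. Another dip was at 56393424 in stretch 4, with 50%, 30.8%, 25.8% and 36% between flanks of 72.7% and 74.7%. The libraries went different ways at 56406181 in stretch 5, where 2B read 100% and the others 28.6%, 50% and 28.6%.

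**Figure D4:**
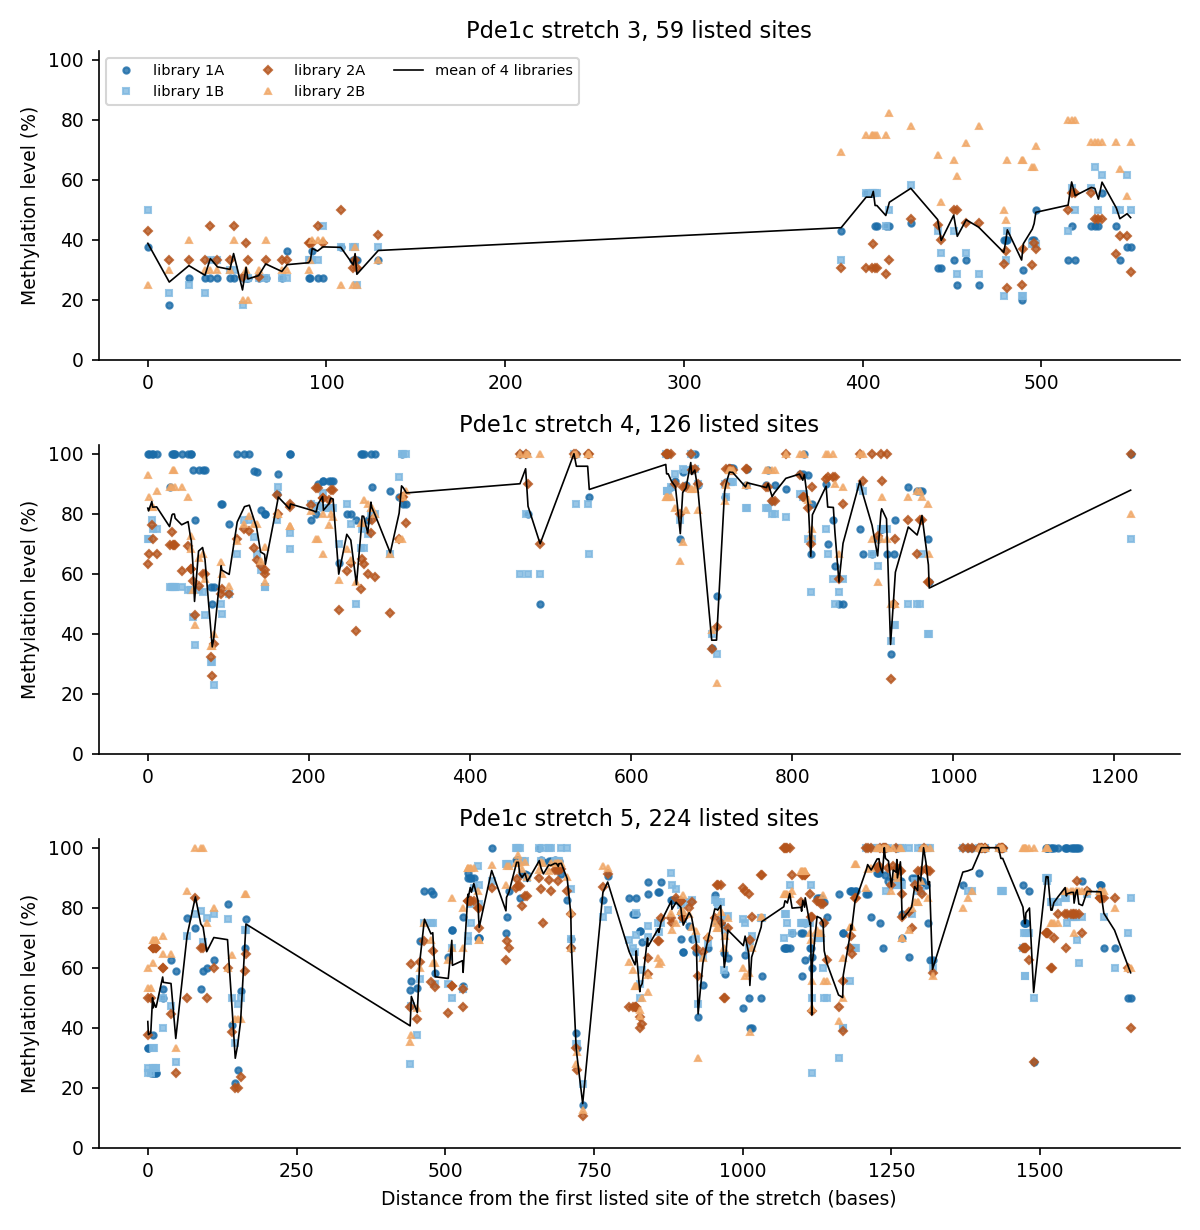
Methylation level in percent (vertical axis) of each listed site of Pde1c stretches 3, 4 and 5 against the distance in bases from the first site of the stretch (horizontal axis); symbols are the 4 Tet2-/- libraries and the black line their mean. Library 2B stands above the others in the second piece of stretch 3, and the site near 731 bases in stretch 5 is low in all 4 libraries.

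The ends of stretches had no common direction. The 90 sites within 50 bases of an end averaged 55.4% ± 2.09 and the 417 sites farther in 71.6% ± 0.678 (SD, n = 2 for both), but this pools stretches of unlike level, and all 12 sites of the low stretch 6 count as ends. Within stretches, the ends stood lower in stretch 5, at 53.8% ± 12.1 against 78.2% ± 0.303, and in stretch 1, at 57.4% ± 5.22 against 58.7% ± 6.55 (SD, n = 2 each). They stood higher in stretch 2, at 63.8% ± 7.22 against 47.8% ± 14.4, in stretch 3, at 44.3% ± 6.33 against 40.3% ± 5.84, and in stretch 4, at 80.5% ± 1.40 against 78.0% ± 0.222 (SD, n = 2 each). In stretches 1 and 3 the difference was smaller than either SD. The short stretch 2 has 21 sites counted as ends and only 7 farther in. In stretch 4 the ends are 13 sites, of which 1 is at the upper end. The 19 sites with no listed neighbour within 10 bases stood at 56.6% ± 1.91 (SD, n = 2). Within stretches 3, 4 and 5 such sites stood at 40.5%, 78.4% and 76.4%, near the stretch means of 41.6%, 78.2% and 76.3%. In stretches 1 and 6 they were lower, at 43.0% and 23.1% against 58.5% and 32.2%.

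Sites were crowded and often touched, much as over all listed sites. The median gap to the next site was 4 bases, as it was over all listed sites, and 488 of the 507 sites (96.3%) had another within 10 bases, against 93.7% of all listed sites. Of the 506 gaps, 121 (23.9%) were of 1 base, against 22.4% over all listed sites. Touching sites made up 66 runs of 2, 20 runs of 3 and 5 runs of 4 positions among the 507 sites. Among all 8492 listed sites there were 1201, 268 and 49 such runs. The table gives neither strand nor base, so touching positions may be cytosines of 1 strand or of both.

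The means of touching sites differed by 3.05 points on average, against 6.32 points for successive sites 2 to 10 bases apart and 10.9 points at 11 to 50 bases. Over all listed sites these differences were smaller, at 2.66, 4.63 and 7.60 points. The run at 56393987 to 56393990 in stretch 4 averaged 100% in library 1A, 90.6% in 1B, 100% in 2A and 85.7% in 2B, with site means from 93.3% to 96.4%. The run at 56392554 to 56392557 in stretch 3 averaged 50%, 55.6%, 32.7% and 75%, with site means from 51.4% to 56.1%. In the second run the libraries were far apart while the 4 positions were close together. Other touching sites differed more: in the run at 56405957 to 56405960 in stretch 5 the site means ranged from 76.1% to 95.3%.

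Close sites also moved together between libraries. The deviations of each site from its own mean, with library means removed, were correlated over pairs of sites of a stretch. Pearson's r was 0.781 over 869 pairs 1 to 10 bases apart, 0.518 over 2996 pairs at 11 to 50 bases and 0.190 over 5810 pairs at 51 to 150 bases. Beyond 150 and up to 300 bases it was -0.0451 over 6092 pairs. These are descriptions with no p, since pairs share sites, libraries and reads. Over all listed sites the values were 0.758, 0.506, 0.249 and 0.0366. Of 414 pairs of successive Pde1c sites up to 10 bases apart, 35.7% to 41.5% had the same level, depending on the library. Over all listed sites it was 34.3% to 41.3%. How much of r comes from reads that cover both sites was not tested. At 51 to 150 bases r was 0.0651, 0.569, 0.681, 0.361, 0.0421 and 0.269 in stretches 1 to 6.

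**Figure D5:**
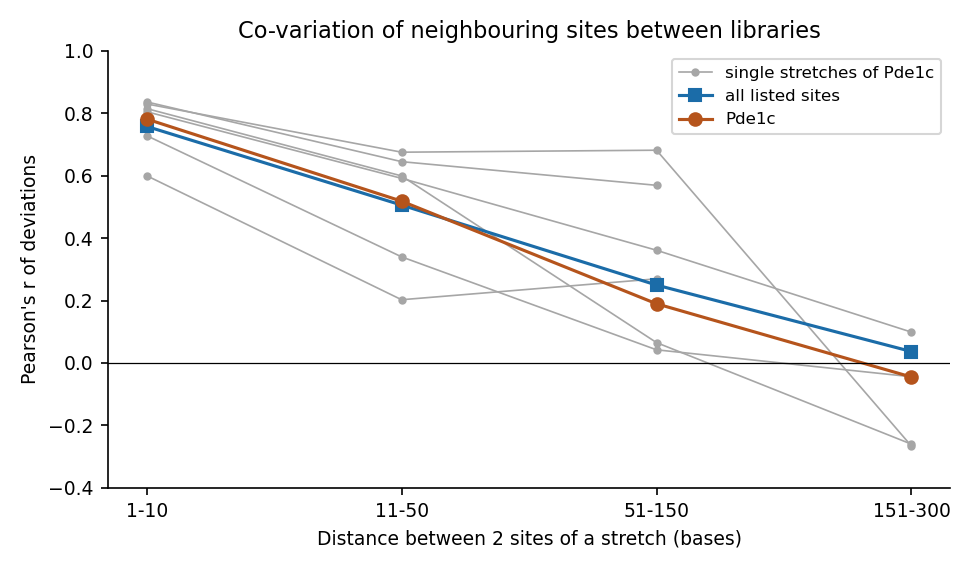
Pearson's r of the deviations of 2 sites of a stretch between Tet2-/- libraries (vertical axis) against the distance between the sites in bases (horizontal axis), for Pde1c (orange), all listed sites (blue) and single Pde1c stretches (grey). For Pde1c it falls from 0.781 at 1 to 10 bases to -0.0451 beyond 150 bases.

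Other genes of cyclic nucleotide and calcium-calmodulin signalling were looked up in the table. Of 69 such genes, among them 24 phosphodiesterases and 10 adenylyl cyclases, Pde1c alone had listed sites. Pde1c was itself chosen for its listed sites, and with 96 of 21900 protein-coding genes (0.438%) holding a listed site, the absence of the others is near the background. Its relatives Pde1a and Pde1b had none. For a gene absent from the table, too few reads, low levels and sites that the authors did not choose cannot be told apart. Inside the Pde1c span RefSeq also places the long noncoding RNA Gm34753 and the small nucleolar RNAs Gm24709 and Gm22493, none of which held a listed site.

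Of the 53 genes with 10 or more sites, Pde1c ranked 9 by mean level and 3 by number of sites. Nearest to it in the levels of the 4 libraries was 2010315B03Rik, with 126 sites at 68.7% ± 2.00 (SD, n = 2) and a root mean square difference of 2.40 points over the libraries. Next were Fut8, the enzyme of core fucosylation, at 65.3% ± 0.355 with a difference of 3.48 points, and the immunoglobulin heavy chain locus Igh, at 65.5% ± 1.02 with 3.49 points (SD, n = 2 for both). Pde1c was above Fut8 and above Igh in all 4 libraries, by 3.46 and 3.25 points on average, and above 2010315B03Rik in 1 of 4. Without sites that have another within 10 bases, Pde1c, with 19 sites left, was no longer above them. It stood at 56.6% ± 1.91 (SD, n = 2), against 56.7% for Fut8 and 57.5% for Igh, gaps smaller than that SD. On the same setting 2010315B03Rik was no longer near, at 34.6%. How many sites this left in the other genes is not given here. Inpp4b, a phosphoinositide phosphatase with 508 sites, had nearly the same number of sites as Pde1c but a level of 51.7% ± 0.844 (SD, n = 2). Pde1c exceeded it by 15.3 to 17.8 points in each library. In Inpp4b the sites were spread over 20 stretches, in Fut8 over 3. An exact sign-flip permutation over 2 biological replicates cannot give a two-sided p below 0.5, so none of these differences was tested.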

How the data were processed

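RNA bisulfite sequencing levels of 4 Tet2-/- mast cell libraries were analysed. Per the labels' protocols, 500 ng of DNase-treated poly(A) RNA with 0.5% unmethylated lambda RNA was converted with bisulfite and sequenced as stranded paired reads of 150 bases. Builds mm10 and GRCm38 come from the submitters' processing notes. Not given in the sources used here were the aligner, site caller, coverage minimum, conversion rate and rule of site choice. Per the file headers, the authors deposited a methylation rate per site and library, a fraction that was multiplied by 100 here to give percent. The table had 0 empty cells and 0 repeated positions.

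In the column names, the digit next to the letter K was taken as the biological replicate and the digit following "rep" as the technical one; the values cannot settle this. Gene spans and start regions came from RefSeq for GRCm38.p6; transcription starts were placed 250 bases before the window's end, which held for 8530 of 11403 minus-strand genes with 1 window. Technical replicates were averaged first. Sites up to 500 bases apart were joined. The co-variation statistic was tested on simulated levels. The members and gene lists were chosen with earlier results of these data known. Genes named were the 3 nearest to Pde1c in library levels among those with 10 or more sites, Inpp4b, Igh, Fut8 and list members with sites; genes named for lacking sites or for lying inside the span are in addition. Alternatives were clustered sites, level minimum, weighting, stretches, joining distance and each replicate left out. Wild-type levels were not analysed here. Python 3.11.15, numpy 2.4.6, pandas 2.3.3 and matplotlib 3.10.9 were used.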

Additional observations from a re-analysis of the deposited data

Results flagged for a closer look

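Libraries standing apart from the other 3 were looked for in 80 values (Pde1c, its stretches, pieces and windows, named sites and named genes), of which 7 stood out by the gap to the nearest library as a share of the whole range. Chance gives about 1 in 20 for separate values that can differ, but the 80 values cannot be set against that rate. The named sites at 100% in every library have no range and could not stand out. Some stretches were entered again, with the same values, as pieces, and many of the other values share sites. Whether 7 is more than chance gives therefore cannot be said. In the run of 4 sites from 56406126 in stretch 5, library 1B read 85.7% and the others 100%, so the gap was the whole range (1), and a level cannot pass 100%. Windows of 100 bases are named by their first site. Library 1B stood high at 56257156 in stretch 2, with 78.9% against 55.6% to 57.3% (0.925 of the range). It stood low at 56394044 in stretch 4, with 78.5% against 85.0% to 85.2% (0.969), and at 56394250, with 54.4% against 71.1% to 72.8% (0.910). Library 1A stood high at 56393445 in stretch 4, with 91.2% against 68.9% to 72.2% (0.851), and at 56405133 in stretch 5, with 68.1% against 55.8% to 57.0% (0.902). Library 2B stood high at 56392551 in stretch 3, with 68.4% against 36.7% to 40.9% (0.867). No cause was tested.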

How the results depend on the processing

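The gene mean of 68.7% became 56.6% without sites that have another within 10 bases (19 sites left), 70.1% with sites at 20% or more in every library, 57.8% with each stretch counted once and 72.3% as the median over sites. Leaving out stretches 1 to 6 in turn gave 70.1%, 69.3%, 72.3%, 65.6%, 62.8% and 69.6%, and leaving out a replicate 68.6% to 68.9%. The share of sites at 50% or more in every library, 64.7%, was 42.1% without clustered sites, 42.4% with each stretch counted once and 70.2% to 72.4% without a replicate, where only 2 libraries had to pass. Merging positions within 10 bases left 93 of 507 sites, and joining sites up to 100 bases apart gave 10 stretches in place of 6. For sites 1 to 10 bases apart, the correlation of 0.781 was 0.773 without stretch 1, 0.814 without stretch 5 and 0.775 to 0.787 without a replicate. Of the 29 settings tried for single stretches and named genes, chosen after seeing the data, 23 moved the level by less than its SD. Most of these left out 1 of 2 replicates, which always moves a mean by less than their SD, so they show no stability. The remaining settings left out clustered sites. They moved the level by more than its SD in 6 cases and by less only in stretches 3, 4 and 5. No paired analysis of the genotypes was possible because only Tet2-/- levels were analysed here. Depth is unknown, so the precision of a site cannot be stated.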
